A study of Rattus norvegicus with 24 samples.

Results

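The transcripts examined were those of 10 transporters that carry amino acids across the cells of the kidney tubule: Slc3a1, Slc7a9, Slc7a13, Slc6a18, Slc6a19, Slc1a1, Slc3a2, Slc7a7, Slc7a8 and Slc7a5. They were chosen by name and found by gene symbol among the 17334 genes listed for each sample. All 10 were present, each under a single Entrez identifier, and all 10 were among the 12778 genes that passed the filter on low counts. RNA of the whole left kidney was sequenced in 24 PKD/Mhm (Cy/+) rats, all male, 6 in each of 4 groups and killed at the age of 8 months. This rat line develops kidney cysts, and every animal of every group was heterozygous for the mutation. Heterozygous rats had been told from non-cystic rats by palpation of the abdomen. For the control group (Ctrl) the labels name no agent, and whether a vehicle was injected is not stated in the sources used here. The Ctrl animals are numbered 1 to 24 and the treated animals 26 to 43, so that the order of the numbers and the treatment cannot be told apart. The CoCM group was given conditioned medium, collected from human skin-derived ABCB5+ stromal cells that were cultured with stimulated macrophages of the human THP-1 cell line. Human ABCB5+ stromal cells were injected into the abdominal cavity (i.p. ABCB5+) or into a vein (i.v. ABCB5+) of the animals of the last groups, 2000000 cells each time. Injections were given once a month for 6 months. The sources used here differ on the route by which the medium was given, the abdomen or a vein.

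Amino acids that pass the glomerular filter are taken back almost completely by the proximal tubule, the first part of the nephron. They enter through transporters of the apical, brush border membrane and leave to the blood through others in the basolateral membrane. Several of these transporters are heterodimers, in which a heavy chain brings a light chain to the membrane and the light chain carries the amino acid. Slc3a1 encodes the apical heavy chain rBAT. Its partners are the light chain of Slc7a9, which takes up cystine and basic amino acids mainly in the early proximal tubule, and that of Slc7a13, which carries aspartate, glutamate and cystine in the late, straight part. Mutations of Slc3a1 or Slc7a9 cause cystinuria. Slc3a2 encodes the basolateral heavy chain 4F2hc, which pairs with the light chains of Slc7a7, Slc7a8 and Slc7a5. The single-chain transporters Slc6a19 and Slc6a18 take up neutral amino acids at the brush border, and Slc1a1 takes up glutamate and aspartate there.

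Total estimated counts were between 9304630 and 14125457 per sample. Markers of the nephron segments were present in the kidneys, among them Umod of the thick ascending limb at 671 to 4638 TPM (transcript abundance corrected for length and scaled to the total of the sample) and Aqp2 of the collecting duct at 255 to 754 TPM. Of the markers of the distal convoluted tubule, Slc12a3 was at 328 to 1370 TPM and Pvalb at 0 to 0.33 TPM. A library of the CoCM group (animal 39), a library of the i.p. group (animal 38) and a pair of the i.v. group (animals 36 and 37) stood apart from the other 20 on the first principal component of all tested genes other than the transporters, which held 56.3% of the variance. In these 4 kidneys the summed TPM of leukocyte markers (Ptprc, Cd68, Cd3e) was 7.84 to 25.6, against 96.1 to 211 in the other 20. That of injured tubule markers (Havcr1, Lcn2, Spp1, Vim, Sox9) was 516 to 786, against 6866 to 14548. Spp1 had by far the highest level of this list, at 326 to 566 against 6141 to 13258.5 TPM. Sox9 overlapped, at 20.7 to 64.2 against 45.2 to 80.8 TPM. Fibroblast markers (Col1a1, Pdgfrb, Dcn) summed to 41.8 to 155 TPM, against 229 to 864. Some tubule sums were shifted upward with overlap. Early proximal tubule markers summed to 2906 to 4301 TPM, against 989 to 3620, and late ones to 997 to 2658, against 209 to 1682 (lists given below). Those of the thick ascending limb (Umod, Slc12a1, Cldn16) summed to 4117 to 5129 TPM, against 800 to 4387. Most results that rest on these 4 animals are given below with and without them, or beside the values of the animals themselves. In whole tissue, fewer cells of a type and less RNA per cell cannot be told apart.

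Slc3a1 had the highest mean of the 10 transporters in every group, on the TPM scale, which corrects for transcript length and can be compared between genes. In Ctrl its lowest, median and highest TPM were 125, 401 and 1477. The CoCM kidneys ranged from 154 through a median of 844 to 1892, and the i.p. kidneys from 243 through 829 to 1288. In the i.v. group the lowest was 465, the median 641 and the highest 2926. All 4 groups overlapped, and within Ctrl alone the highest animal exceeded the lowest by 11.9-fold. The kidneys of animals 36 and 37 of the i.v. group (2661 and 2926) and animal 39 of the CoCM group (1892) lay above all of the 20 kidneys that did not stand apart, the highest of which was at 1760.0 TPM. Without animals 36 and 37, the i.v. group ranged from 465 to 696 TPM.

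Slc7a13, the second light chain of rBAT, varied most of all the transporters. Its lowest, median and highest TPM were 5.23, 53.9 and 638 in Ctrl. They were 10.2, 458 and 1102 in CoCM. The i.p. kidneys gave 19.98, 313 and 892, and the i.v. kidneys 49.5, 263 and 2672. Over the 24 kidneys the highest was 511-fold the lowest, and within Ctrl the spread was still 122-fold. The standard deviation of Slc7a13 within groups, on the log2 scale of CPM (counts scaled to the size of the library), was 2.65, the fifth largest of all 12778 tested genes. Without the 4 kidneys that stood apart it was 2.53 and ranked 5 again. For comparison, the median of all tested genes was 0.30 with all animals and 0.23 without the 4. The low and the high kidneys were in every group: Ctrl animals 1 and 12 were at 5.68 and 5.23 TPM while Ctrl animal 24 was at 638, and CoCM animal 40 was at 10.2 while CoCM animal 35 was at 1056.

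Slc7a9, the partner of rBAT in the early proximal tubule, was far more even. Its lowest, median and highest TPM were 67.3, 98.4 and 153 in Ctrl, 63.3, 86.8 and 105 in CoCM, 75.8, 94.9 and 117 in the i.p. group and 83.6, 104 and 152 in the i.v. group. The 4 kidneys that stood apart (75.8 to 115) lay inside the range of the other 20. Its standard deviation within groups was 0.34 on the log2 CPM scale, so that the light chains that share rBAT differed in their spread between animals.

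**Figure D1:**
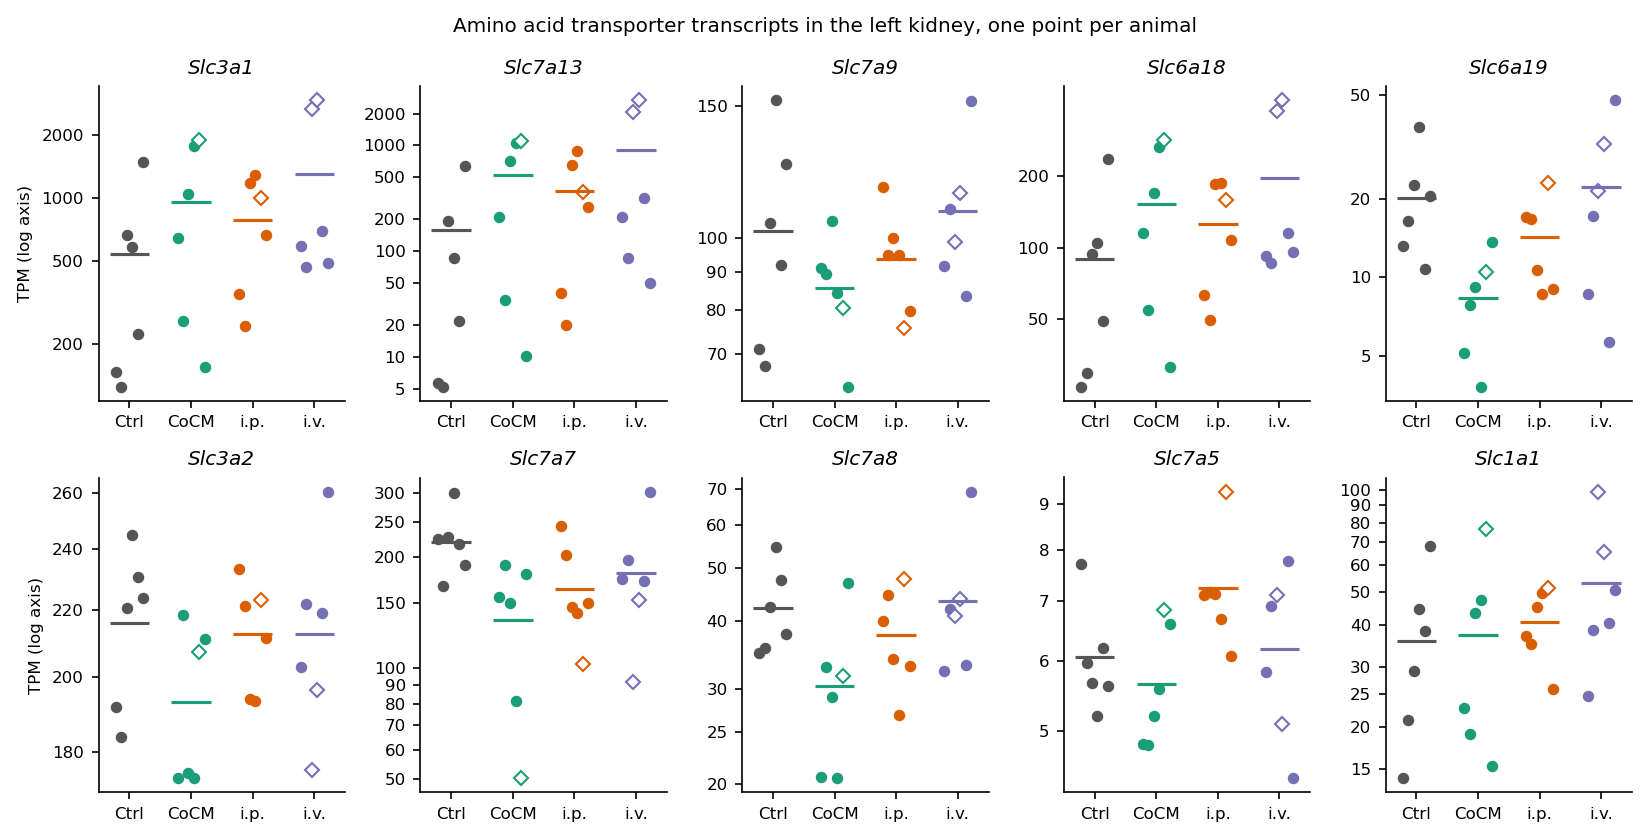
Level of each transporter in TPM on a log axis, which differs between panels, in the left kidney of each of 24 rats. Points are animals, open diamonds are the 4 kidneys that stood apart (CoCM 39, i.p. 38, i.v. 36 and 37) and lines are group means (n = 6). The groups overlap in every panel, and Slc7a13 spans from 5.23 to 2672 TPM while Slc3a2 spans from 173 to 260.4.

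Slc6a18 and Slc6a19 lie next to each other in the genome and encode related transporters of neutral amino acids. Over the animals of all groups together, their transcripts did not follow each other. Slc6a18 had a lowest, median and highest TPM of 25.98, 71.6 and 236 in Ctrl. It had 31.4, 142 and 284 in CoCM, 49.4, 133 and 187 in the i.p. group, and 85.9, 105 and 416 in the i.v. group. As for Slc3a1, the kidneys of animals 36, 37 and 39 lay above the other 20, at 375, 416 and 284 against at most 265. Slc6a19 was lower, with 10.7, 18.4 and 37.5 TPM in Ctrl and 3.81, 8.50 and 13.6 in CoCM. In the i.p. group it was at 8.66, 13.7 and 23.035, and in the i.v. group at 5.65, 19.3 and 47.6. All 6 CoCM kidneys lay below the Ctrl mean of 20.2 TPM, and 5 of them lay below the lowest Ctrl kidney (3 on the CPM scale). The 4 kidneys that stood apart (10.51 to 32.2 TPM) lay inside the range of the other 20 (3.81 to 47.6).

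The promoters of Slc3a1, Slc6a18 and Slc6a19 are shown because the first 2 of these genes had nearly the same pattern over animals and the third, beside Slc6a18, did not. The sequences are those of RefSeq for the rat assembly GRCr8, 250 bases before the annotated start, 5′ to 3′ on the strand of the gene. Slc3a1 is at chr6:15394750-15394999 (minus strand), Slc6a18 at chr1:31436403-31436652 (plus strand) and Slc6a19 at chr1:31414494-31414743 (plus strand). The submitters' notes name another assembly, rn6, and no coordinates of it are used. Capitals mark matches to a site of HNF4 (searched as CAAAGTCCA) and to a half-site of HNF1 (searched as GTTAAT), factors known for their part in proximal tubule gene expression. All matches shown are on the reverse strand.
Slc3a1: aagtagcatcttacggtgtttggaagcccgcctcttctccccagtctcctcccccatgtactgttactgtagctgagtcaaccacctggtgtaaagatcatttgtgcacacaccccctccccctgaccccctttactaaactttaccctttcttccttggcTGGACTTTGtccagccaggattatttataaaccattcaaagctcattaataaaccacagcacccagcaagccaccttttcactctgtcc
Slc6a18: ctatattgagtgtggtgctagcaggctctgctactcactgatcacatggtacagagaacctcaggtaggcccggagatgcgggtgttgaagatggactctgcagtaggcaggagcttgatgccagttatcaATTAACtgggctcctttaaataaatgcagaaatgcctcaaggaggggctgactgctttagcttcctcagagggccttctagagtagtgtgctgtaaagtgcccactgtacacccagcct
Slc6a19: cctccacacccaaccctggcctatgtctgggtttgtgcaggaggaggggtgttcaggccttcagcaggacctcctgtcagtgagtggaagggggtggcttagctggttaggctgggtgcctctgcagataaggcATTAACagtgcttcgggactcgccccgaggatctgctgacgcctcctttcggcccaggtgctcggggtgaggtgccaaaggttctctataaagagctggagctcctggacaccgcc
Of the 10 transporters, 8 had an entry, Slc3a2 with 2 windows. Windows of 300 bases, the 250 before and the 50 after the start, were searched on both strands. The HNF4 site was found in Slc3a1 only, 89 bases before the start, and in 0.391% of all 33469 windows. The HNF1 half-site was found in Slc6a18 and Slc6a19, 119 and 116 bases before the start, and in 7.45% of all windows. The composite site of ATF4 (TGATGNAA), a factor of the amino acid response, was found in 0 of the 8 and in 3.98% of all windows. All of these are matches of letters, and binding was not measured. Whether the sites bear on the levels of these genes was not tested. No entry was given for Slc7a13 and Slc1a1.

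Slc1a1, the glutamate and aspartate transporter, had a lowest, median and highest TPM of 14.1, 33.7 and 68.0 in Ctrl. In CoCM it had 15.3, 32.9 and 76.7, in the i.p. group 25.8, 41.1 and 51.4 and in the i.v. group 24.6, 45.6 and 98.6. The kidneys of animals 36 (98.6) and 39 (76.7) lay above the other 20, which reached 68.0 TPM. In Ctrl, animal 24 was the highest for Slc1a1 as well as for Slc3a1, Slc7a13 and Slc6a18.

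The basolateral heavy chain Slc3a2 was the most even of the 10. Its lowest, median and highest TPM were 184, 222 and 245 in Ctrl, 173, 191 and 218 in CoCM, 193, 216 and 234 in the i.p. group and 175, 211 and 260.4 in the i.v. group. Its standard deviation within groups was 0.18 on the log2 CPM scale, and 76.4% of all tested genes had a larger one. The 4 kidneys that stood apart lay inside the TPM range of the other 20. On the CPM scale, 2 of them lay above it, at up to 344 against 323 CPM.

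Slc7a7 encodes the light chain that exports basic amino acids to the blood in exchange for neutral ones, and its loss causes lysinuric protein intolerance. It is known from macrophages as well as from the tubule. Its lowest, median and highest TPM were 167, 220.4 and 299 in Ctrl and 50.3, 154 and 191 in CoCM. They were 102, 148 and 244 in the i.p. group and 91.6, 173 and 302 in the i.v. group. All 6 CoCM kidneys and 5 of the 6 i.p. kidneys lay below the Ctrl mean of 221 TPM. In each of these groups 4 lay below the lowest Ctrl kidney, against 2 and 3 on the CPM scale. The 4 kidneys that stood apart were at 50.3 to 153 TPM, and their leukocyte markers were the lowest of all, as given above. The part of leukocytes in these values was not tested.

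Slc7a8, the basolateral exchanger of neutral amino acids, had a lowest, median and highest TPM of 34.9, 40.1 and 54.7 in Ctrl and of 20.5, 30.3 and 47.0 in CoCM. The i.p. kidneys gave 26.8, 37.01 and 47.8 and the i.v. kidneys 32.4, 41.4 and 69.1. In CoCM, 5 kidneys were below the lowest Ctrl kidney (3 on the CPM scale) and the highest CoCM kidney was animal 40. Slc7a5, the carrier of large neutral amino acids that growing cells use, was the lowest transporter in every group. It had 5.19, 5.81 and 7.70 TPM in Ctrl and 4.81, 5.39 and 6.84 in CoCM. In the i.p. group it had 6.07, 7.12 and 9.30, with all 6 kidneys above the Ctrl mean of 6.05, and in the i.v. group 4.42, 6.37 and 7.77.

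Some kidneys were high for several transporters at once. Ctrl animal 22 was the highest of its group for Slc3a2, Slc7a7, Slc7a8, Slc7a9 and Slc6a19, at 245, 299, 54.7, 153 and 37.5 TPM. In the i.v. group, animal 43 was the highest for the same genes, at 260.4, 302, 69.1, 152 and 47.6 TPM. Both were the lowest of their groups for Slc7a5, at 5.19 and 4.42 TPM. Neither was the highest for Slc3a1, Slc7a13 or Slc6a18.

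By mean TPM, Slc3a1 came first and Slc7a5 last in all 4 groups. Slc7a7 and Slc3a2 followed Slc3a1 in Ctrl, at means of 221 ± 44.5 and 216 ± 23.5 TPM (SD, n = 6), and Slc7a13 came next with 158 ± 246. In the 3 treated groups Slc7a13 was second, with means of 520 ± 500.3 in CoCM, 373 ± 346 in the i.p. and 903 ± 1162 in the i.v. group. Without the 4 kidneys that stood apart, its i.v. mean was 165 TPM, below those of Slc3a2 (226) and Slc7a7 (211). Its means of 403 in CoCM and 374 in the i.p. group were still below that of Slc3a1 only. With all animals, most neighbours in the order of means had overlapping ranges. Those that did not were Slc6a19 and Slc7a5 in Ctrl, Slc7a8 and Slc6a19 in CoCM, and, in the i.p. group, Slc7a9 and Slc1a1 as well as Slc7a8 and Slc6a19.

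Each treated group was compared with the same 6 Ctrl animals, to ask whether the medium or the cells altered expression in the cystic kidney, so the 3 comparisons are not independent. In none of these comparisons did a transporter pass an adjusted p-value of 0.05 (edgeR quasi-likelihood F-test on all 24 samples, Benjamini-Hochberg adjustment over 12778 genes). Of all tested genes, 0.00783% passed for CoCM against Ctrl, a single gene (Ovca2, named after its value was seen). For i.p. ABCB5+ against Ctrl, i.v. ABCB5+ against Ctrl, i.p. against i.v. ABCB5+ and the F-test over the 4 groups the share was 0%. Before adjustment, the share of all genes with a p-value under 0.05 was 11.9% for CoCM, 1.77% for i.p., 5.78% for i.v., 2.14% for i.p. against i.v. and 4.71% for the F-test. Of the 10 transporters, 2 were under it for CoCM, 0 for i.p., 2 for i.v., 0 between the routes and 1 in the F-test. With DESeq2 the counts of all genes called were 81 for CoCM, 0 for i.p., 1 for i.v., 1 between the routes and 10 in the F-test, and with limma voom they were 183, 0, 0, 0 and 1. No transporter was among them in either. In the comparisons with Ctrl and between the routes, the TPM ranges of the groups overlapped for all 10. For CoCM against Ctrl the ranges of only 1.15% of all tested genes did not overlap, so this is no trait of the transporters. The share was not computed for the other comparisons.

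For CoCM against Ctrl, the transporters of lower mean were led by Slc6a19, with a log2 fold change of -1.17 ± 0.45 (SE, n = 6 a group, adjusted p = 0.368 by edgeR). Slc7a7 followed with -0.62 ± 0.26 (edgeR adjusted p = 0.383). For Slc7a8 the value was -0.37 ± 0.21 and for Slc7a9 -0.15 ± 0.19. Slc7a13, Slc3a1 and Slc6a18 had higher means, by 1.84 ± 1.27, 0.96 ± 0.73 and 0.89 ± 0.64, and none of these had an unadjusted p under 0.05. Without Ctrl animal 24, the highest Ctrl kidney for all 3, the values were 3.11, 1.54 and 1.42, with an adjusted p of 0.555 by edgeR for each. Without CoCM animal 39, the library of that group that stood apart, and the other 3, the values were -1.29 for Slc6a19, -0.47 for Slc7a7 and 0.58 for Slc3a1, and Slc1a1 went from 0.20 to -0.21. The 10 transporters were split into 5 higher and 5 lower, with a median of -0.03, beside 0.01 for all tested genes. Without the 4 libraries it was 3 higher and 7 lower.

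For i.v. ABCB5+ against Ctrl, 9 of the 10 transporters had a higher mean and Slc7a7 a lower one (-0.23 ± 0.26), while 52.6% of all tested genes were higher. The median of the transporters was 0.21 and that of all tested genes 0.01. The largest differences were those of Slc7a13 at 2.79 ± 1.32 (edgeR adjusted p = 0.673), Slc3a1 at 1.505 ± 0.74 and Slc6a18 at 1.34 ± 0.65, with the same adjusted p by edgeR for each. Animals 36 and 37 were the highest of the group for all 3. Without the 4 libraries that stood apart, the log2 fold changes were 0.01, 0.02 and 0.07, and 7 of the 10 transporters were higher, with a median of 0.02.

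For i.p. ABCB5+ against Ctrl, 6 transporters had higher and 4 lower means, with a median of 0.16 beside 0.00 for all tested genes. The smallest p was that of Slc7a5, which was higher by 0.33 ± 0.17 (edgeR adjusted p = 0.978). Without the 4 libraries the value was 0.18. Slc7a13 was at 1.34 ± 1.26, Slc3a1 at 0.66 ± 0.73 and Slc7a7 at -0.41 ± 0.26. When 1 animal was left out, these ran from 0.86 to 2.62, from 0.44 to 1.25 and from -0.51 to -0.30. Between the routes, 9 of the 10 were lower after i.p. than after i.v. injection, with the largest difference for Slc7a13 (-1.45 ± 1.26). Without the 4 libraries this turned to 5 higher and 5 lower, and the difference of Slc7a13 to 1.28, of Slc3a1 from -0.85 to 0.50, of Slc6a18 from -0.76 to 0.37 and of Slc1a1 from -0.45 to 0.06. The F-test over the 4 groups gave its smallest p for Slc6a19 (edgeR adjusted p = 0.817).

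**Figure D2:**
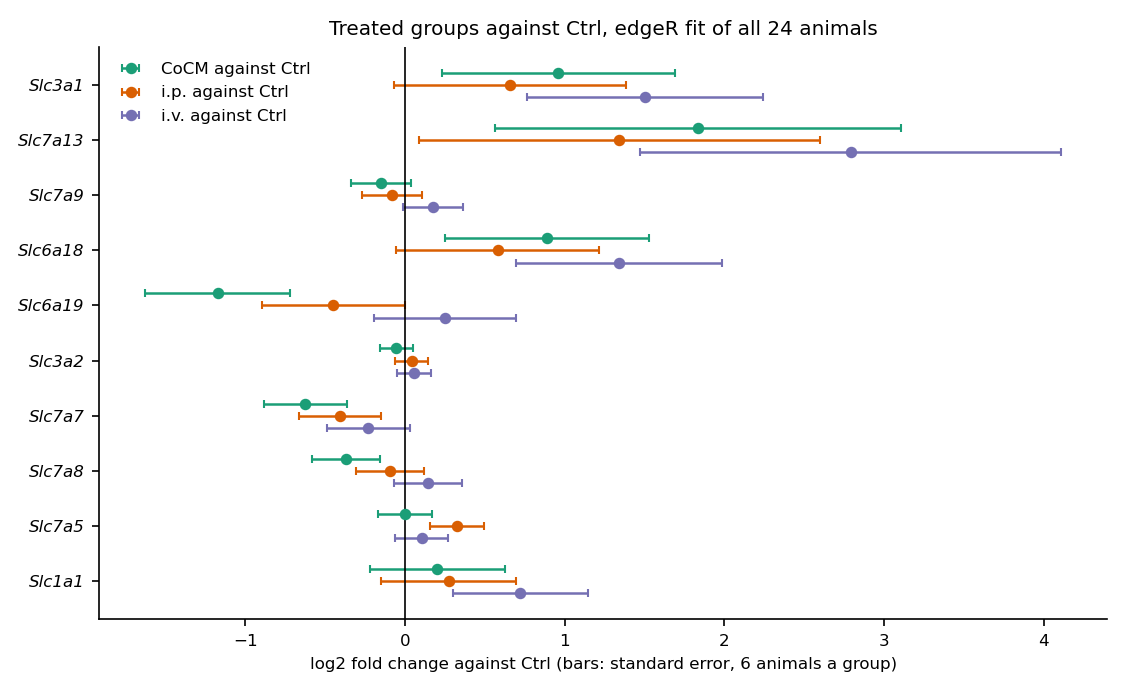
Log2 fold change of each transporter in each treated group against Ctrl (n = 6 a group), with bars of 1 standard error from the edgeR fit of all 24 animals. Slc7a13, Slc3a1 and Slc6a18 have the largest positive values with the widest errors, up to 2.79 ± 1.32, and Slc6a19 in CoCM has the largest negative value, -1.17 ± 0.45.

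The ratio of a light chain to its heavy chain, as TPM over TPM in the same kidney, was compared next, with an exact permutation test of each treated group against Ctrl. In Ctrl the Slc7a7 to Slc3a2 ratio was between 0.851 and 1.22, with a median of 0.984. It was 0.242 to 0.902 in CoCM, 0.458 to 1.05 in the i.p. group and 0.522 to 1.16 in the i.v. group. On the log2 scale the mean of CoCM minus that of Ctrl was -0.67 (exact permutation p = 0.0152, two-sided) and for the i.p. group it was -0.44 (exact permutation p = 0.0281), both with an adjusted p of 0.195 over the 15 ratio tests. The lowest ratio was that of CoCM animal 39, and without the 4 libraries that stood apart the differences were -0.39 and -0.30, with an adjusted p of 0.268 by the exact permutation test for both. The ratio of Slc7a8 to Slc3a2 was 0.169 to 0.223 in Ctrl and 0.118 to 0.222 in CoCM, a difference of -0.36 (exact permutation p = 0.0390, adjusted p = 0.195). Without CoCM animal 40, whose ratio was the highest of that group, the difference was -0.47 and the adjusted p of the exact permutation test 0.0325. None of the 15 tests passed the adjustment with all animals, where the smallest p that 6 against 6 can give is 0.0022.

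The ratios with rBAT were wider. Slc7a13 to Slc3a1 ran from 0.0389 to 0.432 in Ctrl, and the medians were 0.123 in Ctrl, 0.455 in CoCM, 0.380 in the i.p. and 0.406 in the i.v. group. Slc7a9 to Slc3a1 ran from 0.0849 to 0.541 in Ctrl, with medians of 0.338 in Ctrl, 0.121 in CoCM, 0.103 in the i.p. and 0.138 in the i.v. group. The differences from Ctrl, 1.24 to 1.58 for the first and -1.26 to -0.94 for the second on the log2 scale, had exact permutation p-values of 0.0628 to 0.156 and adjusted values of 0.211 to 0.213. The i.v. group had the largest of each. Its animals 36 and 37 had Slc7a13 to Slc3a1 ratios of 0.784 and 0.913, against 0.102 to 0.455 in its other kidneys. Their Slc7a9 to Slc3a1 ratios were 0.0371 and 0.0392, against 0.120 to 0.314. Slc7a5 to Slc3a2 differed from Ctrl by 0.04 to 0.28.

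**Figure D3:**
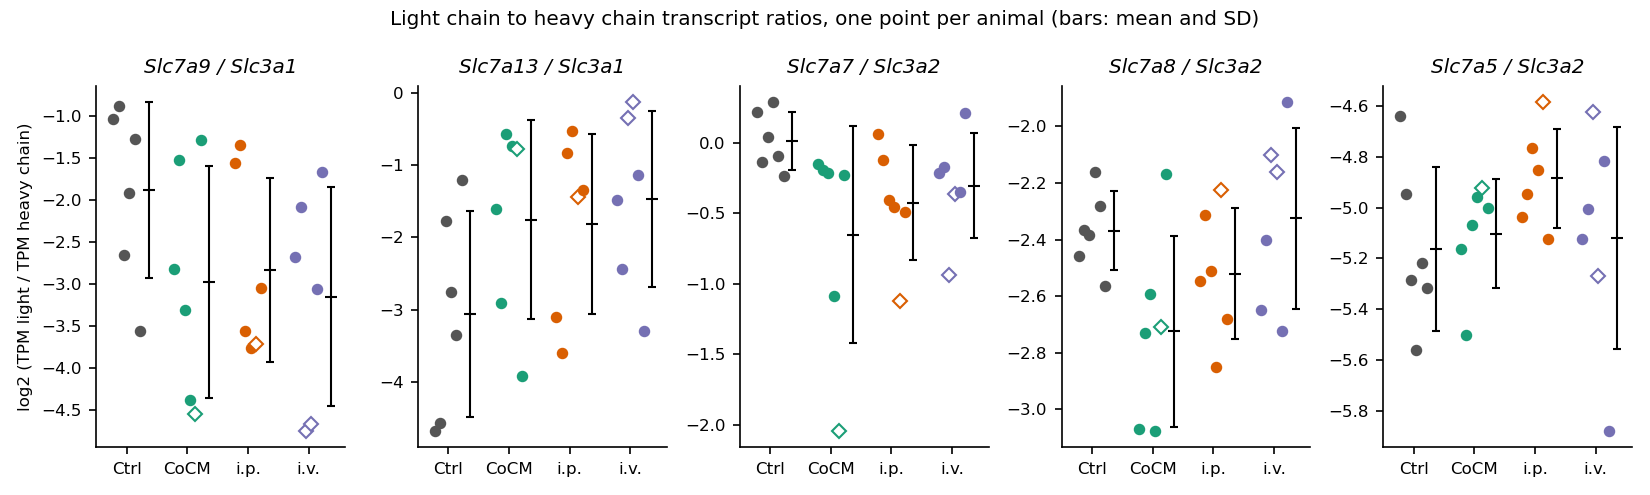
Log2 ratio of light chain to heavy chain TPM for each of 24 kidneys in 4 groups, with points for animals, open diamonds for the 4 that stood apart, and black bars for the mean and SD of the group (n = 6). The axis differs between panels, and the groups overlap in each. In the third panel CoCM animal 39 is lowest, at a ratio of 0.242.

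The transcripts of partner chains were then correlated over the 20 animals that did not stand apart (log2 CPM, permutation tests with 100000 resamples, adjusted over 6 pairs). Slc3a1 and Slc7a13 had the closest relation of these, with r = 0.98 and rho = 0.97. The permutation p of both was 1e-05, the smallest that the resamples can give, and the adjusted p was 6e-05. Leaving out the 2 animals farthest from the median of Slc3a1 gave r = 0.98, and by group, as a description, Ctrl had r = 0.99 (n = 6), CoCM 0.99 (n = 5), the i.p. animals 0.999 (n = 5) and the i.v. animals 0.90 (n = 4). Slc3a2 and Slc7a7 had r = 0.76 and rho = 0.74 (permutation p = 0.00013 and 0.00039, adjusted p = 0.00028 and 0.00117), with r = 0.75 without the 2 farthest animals. Slc3a2 and Slc7a8 had r = 0.76 and rho = 0.69 (permutation p = 0.00014 and 0.00096, adjusted p = 0.00028 and 0.00192), with r = 0.77 without the 2 farthest. Within the groups these pairs had r of 0.86 and 0.85 in Ctrl, 0.78 and 0.79 in CoCM and 0.98 and 0.95 in i.v., but only 0.10 and 0.19 in i.p.

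The other partner of rBAT was looser. Slc3a1 and Slc7a9 had r = 0.53 and rho = 0.48 (permutation p = 0.0159 and 0.0336, adjusted p = 0.0238 and 0.0505). The relation did not hold without the 2 animals farthest from the median of Slc3a1 (r = 0.29), and by group, as a description, r was 0.86 in Ctrl (n = 6), 0.62 in CoCM (n = 5), 0.36 in the i.p. group (n = 5) and -0.64 in the i.v. group (n = 4). Slc3a2 and Slc7a5 had r = -0.17 and rho = -0.13 (permutation p = 0.472 and 0.595), and the neighbours Slc6a18 and Slc6a19 had r = -0.24 and rho = -0.27 (permutation p = 0.312 and 0.249). By group, as a description, r of these neighbours was 0.59 in Ctrl, -0.76 in CoCM, -0.93 in the i.p. and -0.45 in the i.v. group.

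**Figure D4:**
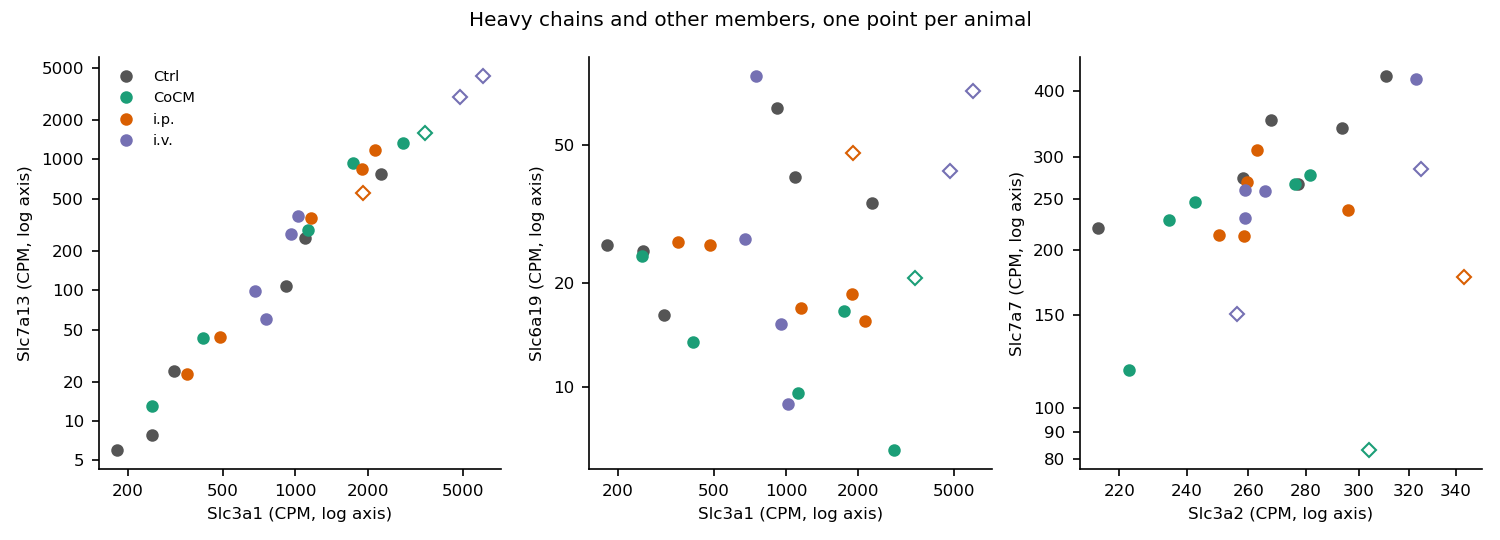
CPM of each animal on log axes for 3 pairs of transporters, coloured by group, with open diamonds for the 4 kidneys that stood apart. Slc7a13 follows Slc3a1 over the whole range (r = 0.98 over the 20 other animals), Slc6a19 does not follow Slc3a1 (r = -0.24), and Slc7a7 follows Slc3a2 (r = 0.76). In the third panel CoCM animal 39 is the lowest for Slc7a7, at 83.1 CPM.

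All 45 pairs of the 10 transporters were added after the data were seen, and are described by 2 sets of genes with positive r inside each. Slc3a1, Slc6a18 and Slc7a13 were bound by r of 0.98 to 0.99 (permutation p = 1e-05, adjusted p = 9e-05 over 45 pairs), and Slc1a1 joined them with r of 0.72 to 0.80. The other set was Slc3a2, Slc7a7, Slc7a8 and Slc6a19, with r from 0.64 for Slc3a2 and Slc6a19 to 0.88 for Slc7a8 and Slc6a19. The rank correlation of Slc3a2 with Slc6a19 did not pass the adjustment (rho = 0.52, adjusted p = 0.0596 by permutation). Between the sets r ran from -0.47 to 0.13 and none passed the adjustment as r, but as rho Slc7a13 with Slc7a7 (-0.58, adjusted p = 0.0293 by permutation) and with Slc7a8 (-0.54, adjusted p = 0.0481) did. The sign between the sets was not the same in all groups: for Slc3a1 and Slc6a19, Ctrl had r = 0.61, while CoCM had -0.75, the i.p. animals -0.93 and the i.v. animals -0.75, and a difference between groups was not tested. Slc7a9 had positive r with both sets, from 0.36 with Slc7a8 to 0.67 with Slc1a1. Slc7a5 had r between -0.47 and -0.02 with the other 9.

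The transporters were set beside the summed TPM of marker lists over the same 20 animals, 50 relations in all. The late proximal tubule list (Slc5a1, Slc22a7, Ggt1 and Cyp7b1, in which Ggt1 had by far the highest level) had r = 0.99 with Slc3a1, 0.98 with Slc6a18 and 0.98 with Slc7a13 (permutation p = 1e-05 and adjusted p = 0.000167 for each), with rho of 0.99, 0.99 and 0.98. Without the 2 animals farthest from the list's median, r was 0.98, 0.98 and 0.97. Slc1a1 had r = 0.78 with it. The early proximal tubule list was Slc5a2, Slc5a12, Slc34a1, Lrp2, Cubn, Slc4a4 and Gatm, in which Slc34a1 and Gatm had by far the highest levels. Its highest r was with Slc7a9, at 0.83 (rho = 0.80), and it had r = 0.70 with Slc1a1 and 0.66 with Slc6a19. Without the 2 animals farthest from the list's median, r was 0.69 for Slc7a9 and 0.71 for Slc1a1. For Slc6a19 it did not hold without the 2 farthest animals (r = 0.36). Leukocyte markers had r of -0.65, -0.69 and -0.67 with Slc3a1, Slc7a13 and Slc6a18 (rho of -0.68, -0.71 and -0.69, adjusted p of r 0.0141, 0.00844 and 0.00844 by permutation) and 0.44 with Slc7a7 (adjusted p = 0.106), and r = -0.55 with Slc1a1 (adjusted p = 0.0485 by permutation). Fibroblast markers had r = 0.56 with Slc7a7 and 0.55 with Slc6a19 (adjusted p of r 0.0430 and 0.0452 by permutation, of rho 0.0655 and 0.0731), and no other of the 10 passed. Injured tubule markers, a sum made up mostly of Spp1, had r between -0.34 and 0.26 with all 10. In Ctrl the late proximal tubule sum itself ran from 209 TPM (animal 12) to 1317 (animal 24), the same animals that were lowest and highest for Slc3a1 and Slc7a13. The part of proximal tubule content in the differences between animals was not tested.

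**Figure D5:**
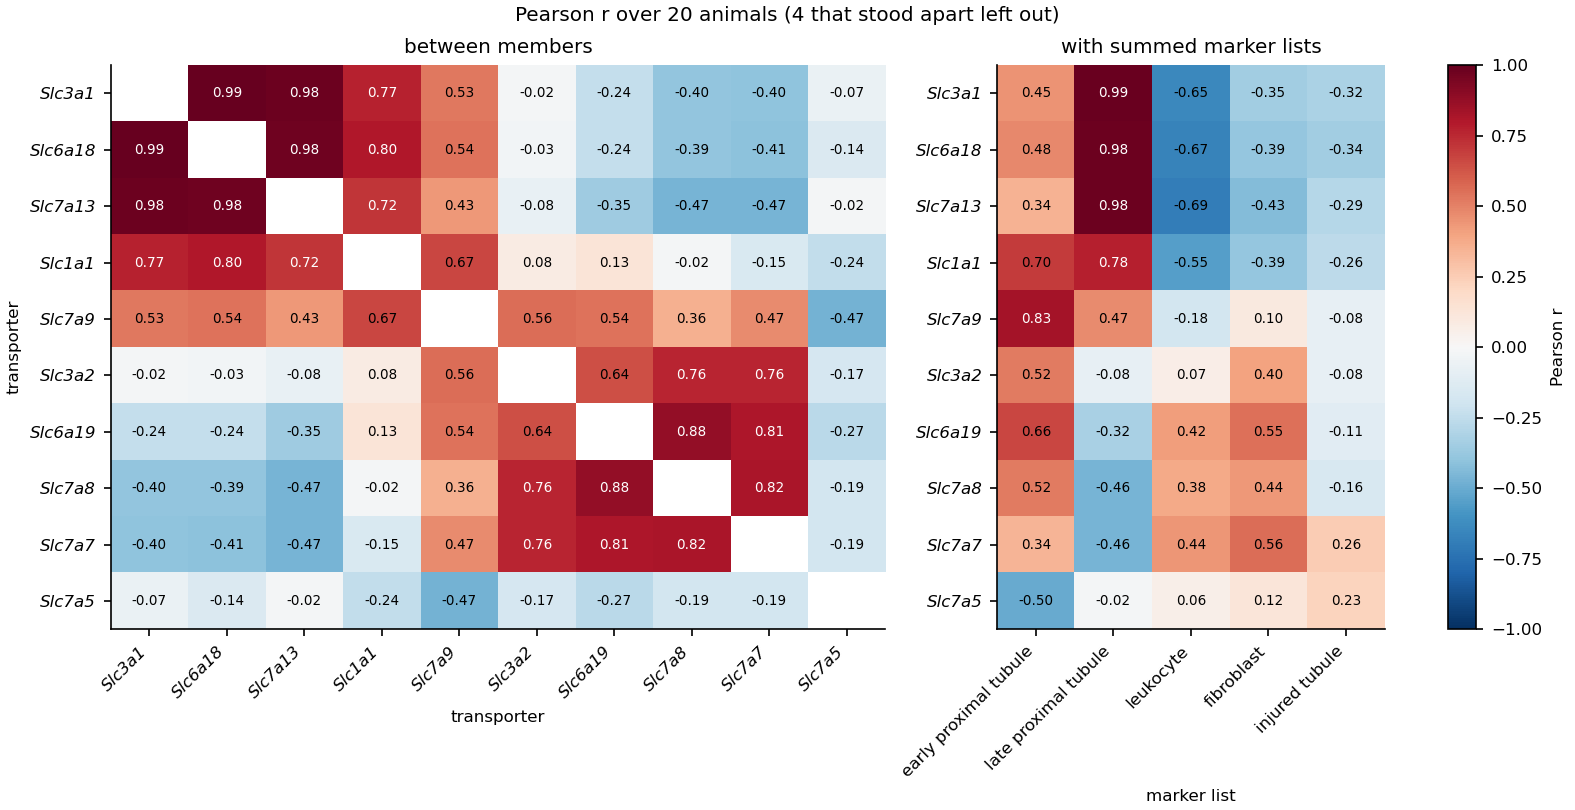
Pearson r of log2 CPM over 20 animals for the 45 pairs of transporters (left) and for each transporter with the log2 summed TPM of 5 marker lists (right), with red for positive and blue for negative values. Slc3a1, Slc6a18 and Slc7a13 form a block of 0.98 to 0.99 and have 0.98 to 0.99 with the late proximal tubule list, and Slc3a2, Slc6a19, Slc7a8 and Slc7a7 form a block of 0.64 to 0.88.

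For each transporter the gene of all 12778 with the most similar deviations from the group means was found over the 20 animals, as a description. Slc3a1 was nearest to Serpinf2, an inhibitor of plasmin (r = 0.995), and Slc6a18 to Mep1a, a brush border protease (r = 0.997). Slc7a13 was nearest to Gclc, an enzyme of glutathione synthesis that uses cysteine and glutamate (r = 0.997). Slc1a1 was nearest to Slc25a15, the ornithine carrier of mitochondria (r = 0.965), and Slc6a19 to Maf, a transcription factor (r = 0.950). Slc7a9 was nearest to Atp6v1b2, a subunit of the proton pump (r = 0.934). The genes nearest to Slc7a8, Slc7a7, Slc3a2 and Slc7a5 were Slc22a23 (r = 0.923), Dpp7, a peptidase (r = 0.892), C1ql4 (r = 0.871) and Efna4, an ephrin (r = 0.828).

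A list of 49 other genes of amino acid transport was examined in the same fits. Of these, 47 were found in the files and 40 were tested, and 0 passed the adjustment in any comparison. Before adjustment 1 was higher and 3 were lower for CoCM, where 11.9% of all tested genes had a p under 0.05. The count was 0 for i.p. (1.77% of all tested genes) and 4 higher and 0 lower for i.v. (5.78%). The median log2 fold changes were 0.04, 0.03 and 0.04, beside 0.01, 0.00 and 0.01 for all tested genes. The smallest p for CoCM was that of Slc7a15, with 1.71 to 2.76 TPM in Ctrl and 2.71 to 4.35 in CoCM (log2 fold change 0.70 ± 0.16, edgeR adjusted p = 0.188). Slc6a6, the taurine transporter, was at 14.8 to 35.1 TPM in Ctrl and 6.66 to 21.6 in CoCM (-0.98 ± 0.37), and Slc15a4, a peptide and histidine transporter of lysosomes, at 17.3 to 21.0 and 14.8 to 17.0 TPM (-0.19 ± 0.07, adjusted p = 0.338 by edgeR). The TPM ranges of Slc15a4 did not overlap, as was the case for 1.15% of all tested genes. For i.p., Slc7a15 came first again at 0.32 ± 0.16, followed by Slc7a10 at -1.21 ± 0.72 and Slc38a4 at -0.46 ± 0.28. For i.v., Slc7a12, a relative of Slc7a13, came first at 2.33 ± 1.02, with 2.18 to 42.9 TPM in Ctrl and 8.33 to 158 in the i.v. group. The glutamine transporter Slc38a3 (1.48 ± 0.67) and the brush border peptidase Anpep (1.44 ± 0.66) came next. Slc7a12 was at 27.3 to 158 TPM in the 4 kidneys that stood apart and at most 67.8 in the other 20, and without the 4 the i.v. values were 0.13 for Slc7a12, 0.15 for Slc38a3 and -0.0569 for Anpep.

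Cltrn, the accessory protein that Slc6a18 and Slc6a19 need at the brush border of the kidney, was the most abundant gene of that list. It ran from 259 to 1059.9 TPM in the 20 kidneys and from 1113 to 1433 in the 4 that stood apart, and its log2 fold changes were 0.24 ± 0.43 for CoCM, 0.19 ± 0.43 for i.p. and 0.61 ± 0.43 for i.v. Without the 4 they were 0.0133, -0.0724 and -0.0549. Anpep was at 58.6 to 470.4 and 399.8 to 881 TPM, Slc38a3 at 21.6 to 249.6 and 130.5 to 356, and the others of the 5 most abundant, Slc38a2 and Slc43a2, at 60.3 to 106 and 27.4 to 68.3 TPM in the 20.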

How the data were processed

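RNA of 24 left kidneys was sequenced by the authors, who deposited, for each sample and gene, estimated counts and TPM from kallisto. The submitters' processing notes name Trim Galore 0.6.4 and the build rn6, while the methods of the study name human hg19 gene models. Which index was used could not be settled, and reads shared by related transporters could be split differently by each. Of 17334 genes, 17179 were given a symbol from RefSeq (GRCr8).

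Deposited estimated counts were rounded and tested with edgeR 4.0.16 (R 4.3.3, filterByExpr, TMM, group means over all 24 samples, quasi-likelihood F-test, Benjamini-Hochberg adjustment over 12778 genes, threshold 0.05). Standard errors are the log2 fold change over the root of F. Log2 CPM used a prior count of 2. DESeq2 1.42.0, limma 3.58.1 (voom with quality weights, and log2(TPM + 1)) and other filters were alternatives. Correlations and ratios used scipy 1.17.1 (Python 3.11.15). On simulated counts for CoCM against Ctrl, 89.5% of 200 genes changed 4-fold among 12732 were called, and 0 without a change. The common biological coefficient of variation was 0.299. No pair of libraries of a group was alike within sampling noise (smallest chi-square per degree of freedom 10.6). Animals are the replicates, and p-values measure the spread between them.

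The members and gene lists were chosen with earlier results of these data known. Named genes of the wider list were the 3 with the smallest p in each comparison with Ctrl, the 5 of highest mean TPM, and Cltrn. A result on 1 further gene of that rule is not reported here. For each transporter the most similar gene was named. The correlations of all 45 pairs and with marker lists, and the values of the wider list without the 4 libraries, were added after seeing the data.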

Additional observations from a re-analysis of the deposited data

Results flagged for a closer look

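In 4 of the 40 combinations of a transporter and a group, the highest of 6 kidneys lay far from the others (the gap to the nearest divided by the range was above Dixon's 95% critical value for 6 samples). About 1 in 20 groups, 2 of 40, would pass this limit by chance if TPM were normally distributed and the combinations independent. Neither holds here, since TPM was not put on a log scale and Slc7a13 and Slc6a18 varied together (r = 0.98). The flags are therefore a description only. Slc7a13 in Ctrl animal 24 was at 638.5 TPM, against 5.23 to 193 in the other Ctrl kidneys (gap share 0.703). In the same animal Slc6a18 was at 236.2 TPM, against 25.98 to 104 (0.627). Slc7a8 in i.v. animal 43 was at 69.06 TPM, against 32.4 to 43.9 (0.686). Slc7a5 in i.p. animal 38, a library that stood apart, was at 9.297 TPM, against 6.07 to 7.17 (0.658).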

How the results depend on the processing

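No transporter passed the threshold in any comparison under any alternative run. The number of all genes called for CoCM against Ctrl, 1 by edgeR, was 81 with DESeq2 and 183 with limma voom, and 0 with limma on log2(TPM + 1), with only the groups compared, and without the 4 libraries that stood apart. Leaving out 1 animal gave 0 to 31, with 31 without Ctrl animal 23. DESeq2 called 1 gene for i.v. against Ctrl, 1 between the routes and 10 in the F-test, where voom called 1 and leaving out 1 animal gave 0 to 1 (1 without Ctrl animal 23). The cause was not tested.

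The correlation of Slc3a1 with Slc7a9 missed the threshold on log2 TPM (r = 0.436) and without the 2 farthest animals (r = 0.290). Without the 4 libraries the i.v. log2 ratios to Slc3a2 turned to -0.0535 for Slc7a8 and -0.0457 for Slc7a5. Leaving out 1 animal gave -0.0385 to 0.123 and -0.0584 to 0.193 for these, -0.47 to -0.29 for Slc7a8 in CoCM (adjusted exact permutation p = 0.0325 without CoCM animal 40) and -0.0214 to 0.163 for Slc7a5 in CoCM.

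Of the log2 fold changes under other settings, 290 kept their direction and 30 turned, and when 1 animal was left out 461 kept it and 19 turned. With voom, those that turned were Slc1a1 in CoCM (-0.0618), Slc7a5 in CoCM (-0.0478), Slc3a2 in i.p. (-0.0828), and in i.v. Slc3a2 (-0.0401), Slc7a8 (-0.15), Slc7a9 (-0.0868) and Slc6a19 (-0.70). Between the routes they were Slc3a1 (0.63), Slc7a13 (1.30), Slc6a18 (0.51) and Slc1a1 (0.16). Without the 4 libraries they were Slc1a1 (-0.21) and Slc7a5 (-0.10) in CoCM, Slc3a2 in i.p. (-0.0212), Slc6a19 (-0.0684) and Slc7a5 (-0.00979) in i.v., and between the routes Slc3a1 (0.50), Slc7a13 (1.28), Slc6a18 (0.37) and Slc1a1 (0.0580). On log2(TPM + 1) they were Slc7a5 in CoCM (-0.0876), Slc3a2 in i.p. (-0.0172), Slc3a2 (-0.0254) and Slc6a19 (-0.0706) in i.v., and Slc3a2 between the routes (0.00815). Slc7a5 in CoCM, at 0.000577 by edgeR, was also at -0.0111 with RLE factors, -0.0133 with DESeq2, -0.00342 with no filter, -0.0161 with at least 10 counts and -0.00188 with only the groups compared. Leaving out 1 animal gave, for those that turned, Slc1a1 -0.19 to 0.46 and Slc7a5 -0.0913 to 0.125 in CoCM, Slc3a2 -0.0280 to 0.0746 and Slc7a9 -0.19 to 0.0648 in i.p., Slc3a2 -0.00150 to 0.0856, Slc7a8 -0.00237 to 0.22 and Slc6a19 -0.0551 to 0.51 in i.v., and Slc3a2 -0.0762 to 0.0308 between the routes. No paired analysis was possible because the groups share no replicate numbers.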
